A study of Mus musculus with 30 samples.

Results

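Genes that carry signals in leukocytes were followed across sorted epithelial cells of the mouse stomach. The 10 genes are Ptprc, Cd300lf, Inpp5d, Pik3r5, Bmx, Vav1, Fyb, Sh2d6, Lrmp and Coro1a, out of 25942 named genes in each of 2 expression tables. They were taken as a given list, proposed with earlier results of these libraries in view. At least Cd300lf, Vav1, Lrmp, Sh2d6, Pik3r5 and Fyb were chosen by their levels, since those results named them as lower in antral Sox2-high than Sox2-low libraries. The antral Sox2 sorts are therefore described here without a test. All 10 genes passed the filter on low values in every fit.

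The 30 libraries form 10 groups of 3. Antrum, the distal stomach, gave Lgr5-positive and Lgr5-negative cells from Lgr5-DTR-GFP mice, and cells with high, low or no Sox2 reporter (Sox2-high, Sox2-low, Sox2-negative) from Sox2-Tomato mice. Corpus, the acid-secreting body, gave EpCAM-high Lgr5-positive, EpCAM-low Lgr5-positive and Lgr5-negative cells from Lgr5-DTR-GFP mice, and Sox2-positive and Sox2-negative cells from Sox2-Tomato mice. GFP with a diphtheria toxin receptor reports the stem cell gene Lgr5 in the Lgr5-DTR-GFP line, a red protein reports the transcription factor Sox2 in the Sox2-Tomato line, and EpCAM is an epithelial adhesion protein. The genotype label of every sample is WT although both lines carry a reporter, and neither the age nor the number of animals in a sort is given in the sources used here. Library numbers mark the sort day of a line and tissue. The corpus Sox2-positive libraries are called Sox2 low in the description label and the sort sheet.

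Tuft cells are rare chemosensory cells of gut epithelium. They detect luminal signals through taste-type transduction that ends in the cation channel Trpm5, and they signal to immune cells. They also express genes first described in leukocytes, so such a transcript in a bulk sort can come from tuft cells or from leukocytes that passed the gate. Trpm5 served as the tuft reference. Tyrobp (DAP12), an adaptor of activating receptors in myeloid and natural killer cells, served as the leukocyte reference. In bulk RNA, fewer cells of a type and less RNA per cell cannot be told apart.

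The list spans several steps of a signalling chain. Ptprc is CD45, the receptor tyrosine phosphatase of nucleated blood cells, and Cd300lf is an inhibitory immunoglobulin-type receptor that murine norovirus uses to enter cells. Inpp5d (SHIP1) is a phosphatase that consumes the lipid product of phosphoinositide kinases, and Pik3r5 is a regulatory subunit of the phosphoinositide kinase that is switched on by G protein-coupled receptors. Bmx is a Tec family tyrosine kinase, Vav1 a guanine nucleotide exchange factor for Rac, and Fyb (ADAP) an adaptor that links antigen receptors to integrins. Sh2d6 encodes a protein with an SH2 domain, and Lrmp (Irag2) an endoplasmic reticulum protein first found in lymphoid cells. Coro1a is the actin-binding coronin of leukocytes.

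RefSeq promoter windows, 250 bases before to 50 after a transcription start, were read for 9 of the 10 genes (11 windows, build GRCm38.p6). They are shown because Spib, an ETS factor, was among the genes nearest in pattern to Inpp5d and Fyb, as given below. The ETS motif GAGGAAGT was searched on both strands and found in Inpp5d, Vav1 and Cd300lf, and in 3.20% of all 32851 RefSeq windows. The octamer ATGCAAAT of the POU2F3 family, also searched on both strands, was in none of the 11 windows and in 1.74% of all windows. No match says only that these letters are not in the window, and a match is no evidence of binding. The matches lay at -20 (Inpp5d), -11 (Vav1) and 1 (Cd300lf) from the start site, all on the strand of the gene. The 3 windows with a match are chr1:87620062-87620361 on the plus strand for Inpp5d, chr17:57278850-57279149 on the plus strand for Vav1 and chr11:115133943-115134242 on the minus strand for Cd300lf. Capitals mark the ETS match, and each window is written 5′ to 3′ on the strand of its gene.
Inpp5d: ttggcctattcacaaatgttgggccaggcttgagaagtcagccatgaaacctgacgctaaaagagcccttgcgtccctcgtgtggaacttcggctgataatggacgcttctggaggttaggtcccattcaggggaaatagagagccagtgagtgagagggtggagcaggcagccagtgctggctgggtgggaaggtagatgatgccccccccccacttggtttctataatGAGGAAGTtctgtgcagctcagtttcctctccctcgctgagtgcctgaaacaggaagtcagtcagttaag
Vav1: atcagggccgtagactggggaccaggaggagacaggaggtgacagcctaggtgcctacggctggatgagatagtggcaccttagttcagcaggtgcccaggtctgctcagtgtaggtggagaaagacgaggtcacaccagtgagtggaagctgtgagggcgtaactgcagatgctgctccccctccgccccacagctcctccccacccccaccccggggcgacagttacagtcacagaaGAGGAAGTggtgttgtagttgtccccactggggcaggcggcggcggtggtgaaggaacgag
Cd300lf: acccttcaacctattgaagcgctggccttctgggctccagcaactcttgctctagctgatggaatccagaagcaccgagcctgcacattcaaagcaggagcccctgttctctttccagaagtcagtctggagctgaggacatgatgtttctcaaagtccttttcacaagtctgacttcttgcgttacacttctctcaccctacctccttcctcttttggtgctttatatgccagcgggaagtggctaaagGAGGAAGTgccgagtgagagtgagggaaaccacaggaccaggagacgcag

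Levels are normalized counts, which are reads per gene divided by a size factor of the library. The antral and corpus tables were scaled separately, so levels are compared within a tissue. Recovered depth was 31942301 to 62312270 reads in EpCAM-low libraries and 18602964 to 34372254 in the others, and 15014 to 21694 genes had reads. Sorts held 1630 to 142000 cells, with the fewest in Sox2-high (1630 to 3268) and EpCAM-high libraries (2580 to 5230). Below, a gene rose or fell if limma on log2(normalized count + 1) gave a Benjamini-Hochberg (BH) adjusted p under 0.05 over all genes tested. Fold changes are on that log2 scale with their standard error (SE), and a positive value means higher in the group named first.

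Leukocyte content was read from 33 marker genes of myeloid, lymphoid and mast cells and of leukocytes in general. Their summed level was 1913 to 19371 normalized counts in antral Sox2-negative libraries and 582 to 1233 in the other antral libraries. In the corpus it was 2134.5 to 24655 in Sox2-negative libraries and 253 to 1456 in the others. Antral Sox2-negative library 1 (19371) and corpus Sox2-negative libraries 1 and 2 (24655 and 21080) stood apart from the rest. Of the 33 markers, 8 were at 0 in all EpCAM-high libraries (Adgre1, Cd3e, Nkg7, Il7r, Cpa3, Mcpt2, Cd48 and Cd53), 16 in all EpCAM-low, 3 in all corpus Lgr5-negative and 6 in all corpus Sox2-positive libraries. The sum of 20 tuft markers was 261890 to 483960 in EpCAM-high, 2567 to 16978 in EpCAM-low and 21760 to 40180 in corpus Lgr5-negative libraries.

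Tyrobp had few or no reads in the corpus libraries where the 10 genes together were highest, the EpCAM-high ones. It was at 3.22, 9.16 and 0 in EpCAM-high libraries 1, 2 and 3, at 0 in all EpCAM-low libraries, and at 4.59, 12.9 and 4.54 in corpus Lgr5-negative libraries. In the corpus Sox2 sort it was at 0, 3.67 and 4.62 in Sox2-positive and 232, 240 and 25.3 in Sox2-negative libraries. In the antrum its highest values were 274, 27.5 and 20.3 in Sox2-negative libraries, against at most 12.6 in the other groups. Within each tissue the Sox2-negative libraries thus held the highest Tyrobp values and did not overlap with any other group. In the antrum these were also the libraries with the highest mean sum of the 10 genes (16242, 13313 and 25610).

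Trpm5 followed another order. It was at 60059, 117470 and 75025 in EpCAM-high, 3839, 1166 and 462 in EpCAM-low and 5390, 2960 and 4639 in corpus Lgr5-negative libraries. Corpus Sox2-positive libraries held 13881, 7809 and 10331 and Sox2-negative libraries 4720, 3053 and 3892. In the antrum Trpm5 was lowest on average in Sox2-high libraries (516 ± 545) and highest in Sox2-negative libraries (4533 ± 2174, SD, n = 3 each).

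**Figure D1:**
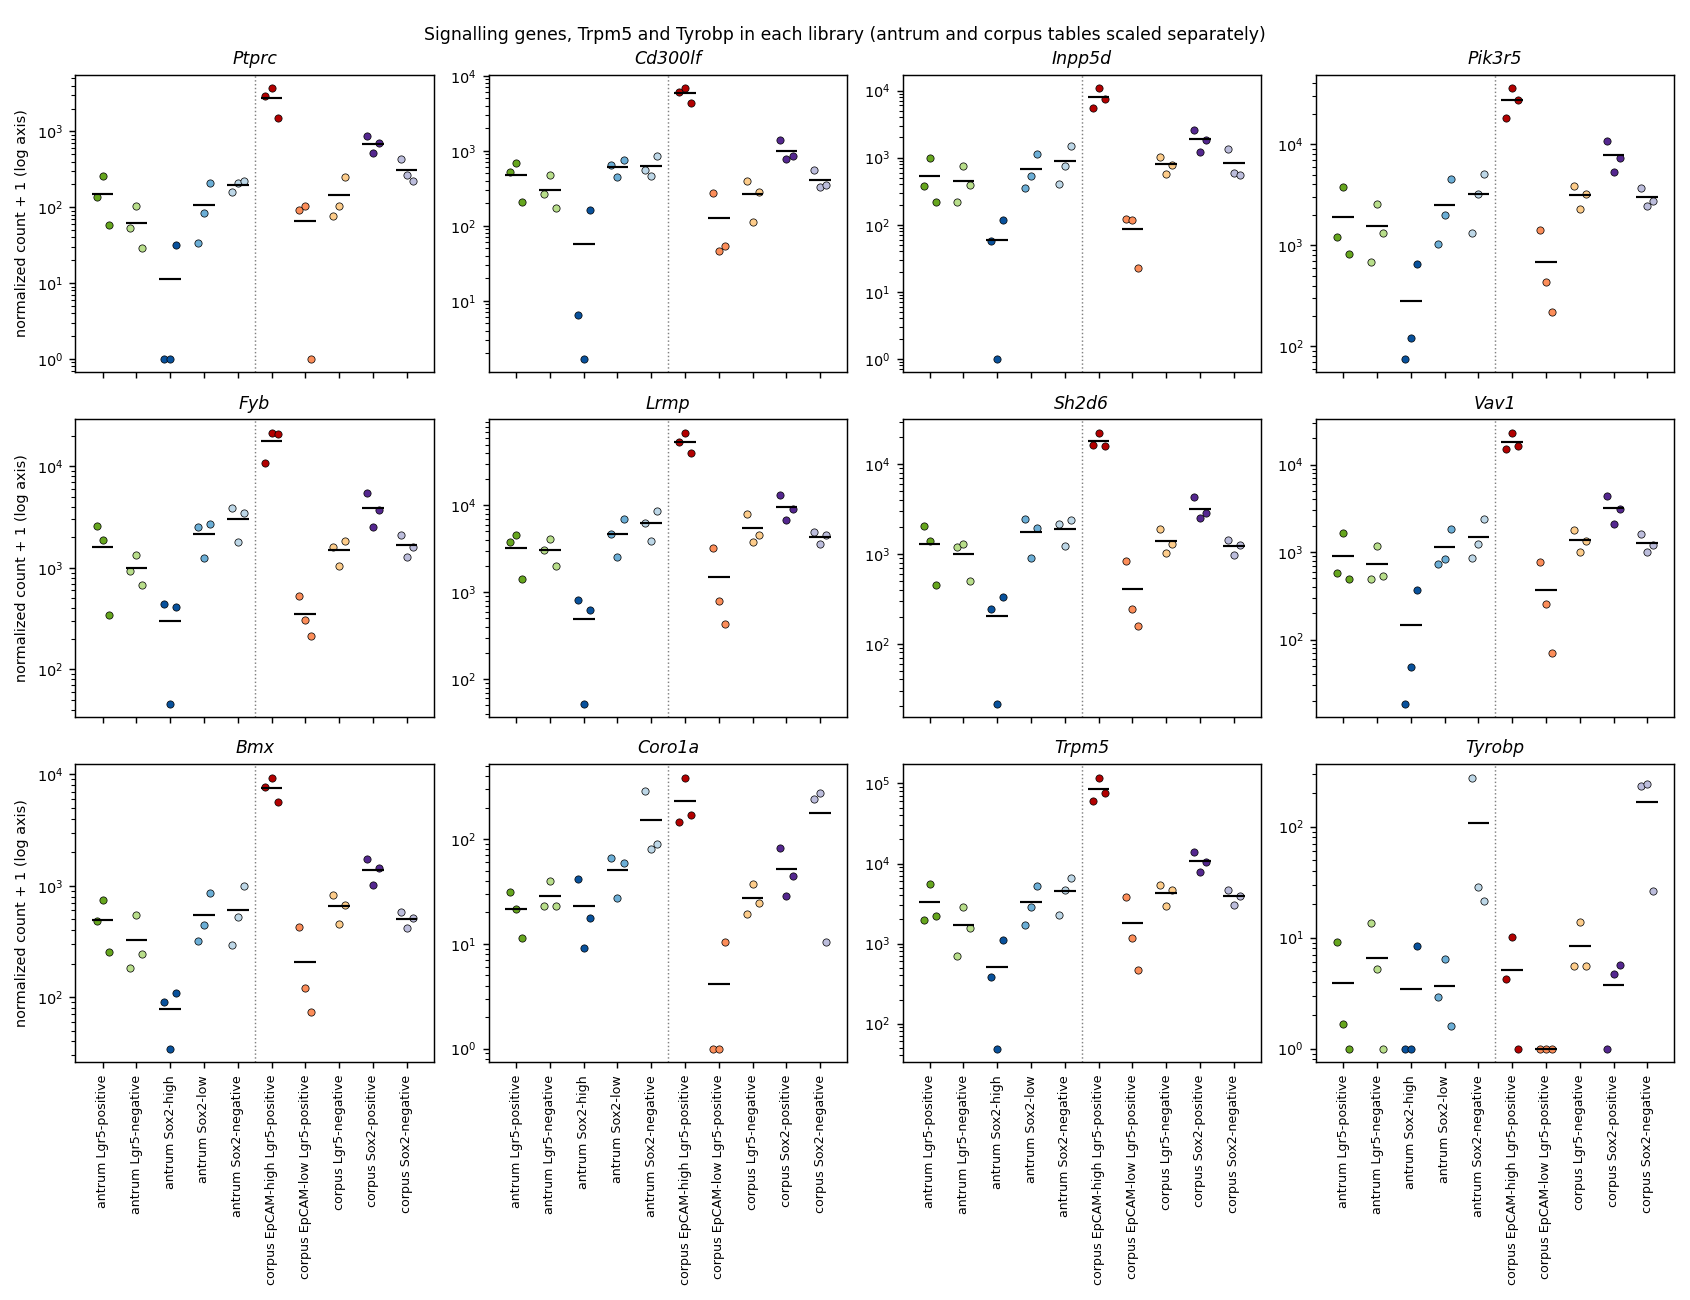
Normalized count plus 1 (log axis) of the 10 signalling genes, Trpm5 and Tyrobp in each of the 30 libraries, by sorted group, with bars at group means and antral groups left of the dotted line. Within the corpus, EpCAM-high libraries hold the highest points of the 10 genes and of Trpm5, and their Tyrobp values are 0 to 9.16.

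Across the groups, 9 of the 10 genes kept to an order close to that of Trpm5. In the corpus their EpCAM-high libraries lay above every Sox2-positive library, and Sox2-positive cells came next by mean. In the antrum, Trpm5 and 8 of the genes had their means, from high to low, in the order Sox2-negative, Sox2-low, Lgr5-positive, Lgr5-negative and Sox2-high. Neighbours in that order overlapped, except that the Sox2-high libraries of these 8 genes lay below all Lgr5-negative libraries, while those of Trpm5 did not. Ptprc had its antral Lgr5-positive mean above Sox2-low, and all neighbours overlapped. Coro1a departed from this order in both tissues. Its antral Sox2-negative libraries lay above all Sox2-low libraries, and in the corpus Sox2-negative cells came second to EpCAM-high cells and overlapped with them.

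Pearson correlations of log2(normalized count + 1) across the 15 libraries of a tissue give a measure of this. With Trpm5 they were 0.84 to 0.97 in the antrum and 0.88 to 0.99 in the corpus for the 9 genes other than Coro1a. With Tyrobp the same genes gave 0.28 to 0.55 in the antrum and -0.01 to 0.19 in the corpus. Coro1a was closer to Tyrobp (0.72) than to Trpm5 (0.49) in the antrum, and in the corpus it was at 0.63 with Trpm5 and 0.52 with Tyrobp. Without the 3 leukocyte-rich libraries named above, Coro1a was at 0.59 with Trpm5 and 0.50 with Tyrobp in the antrum, and at 0.79 with Trpm5 and 0.30 with Tyrobp in the corpus. These values are descriptions, since the libraries share groups and sort days.

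The antral values include the Sox2-high and Sox2-low libraries that served to choose members, and Trpm5 was also lower in Sox2-high libraries. Over the 9 antral libraries outside those groups, a setting chosen after seeing the data, the 9 genes were at 0.35 to 0.91 with Trpm5 and at 0.07 to 0.75 with Tyrobp. There Fyb (0.46 with Trpm5 and 0.75 with Tyrobp), Lrmp (0.53 and 0.70) and Sh2d6 (0.35 and 0.74) were closer to Tyrobp, as was Coro1a (0.32 and 0.91). Ptprc, Inpp5d, Vav1, Pik3r5, Bmx and Cd300lf were closer to Trpm5, at 0.71 to 0.91. Tyrobp had only 0 to 15 reads in the antral Lgr5-positive and Lgr5-negative libraries. In each of the groups used, library 1 had the highest Tyrobp and the lowest Trpm5 level, so sort day and likeness cannot be told apart there. Without the Sox2-high libraries alone, 7 of the 10 genes were closer to Trpm5, with Fyb, Sh2d6 and Coro1a closer to Tyrobp.

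**Figure D2:**
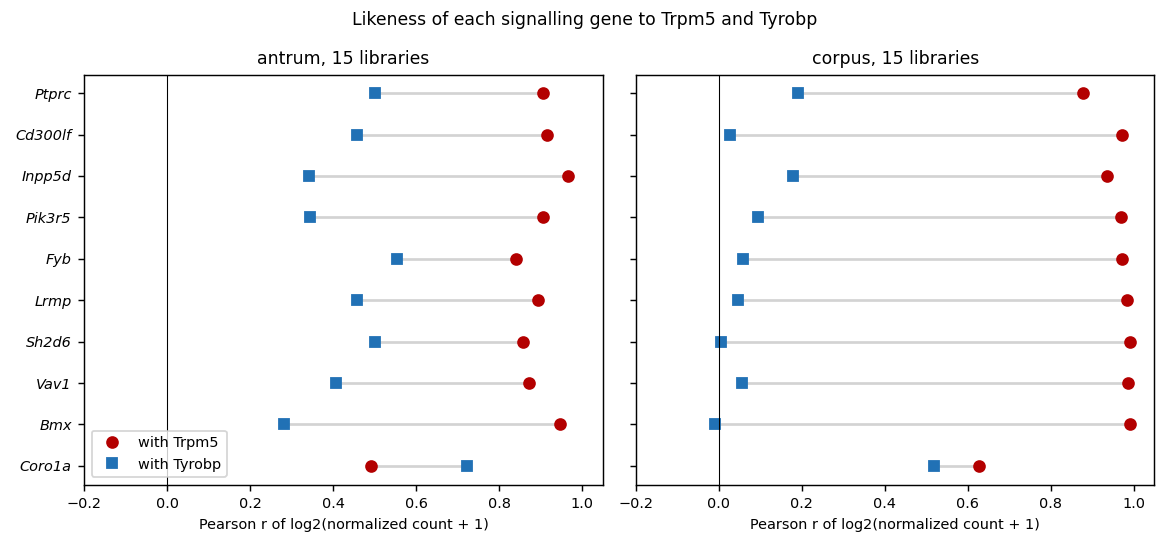
Pearson correlation of each signalling gene with Trpm5 (circles) and with Tyrobp (squares) across 15 antral libraries (left) and 15 corpus libraries (right). In the antrum the marks of Coro1a lie in the reverse order of those of the other 9 genes, with Trpm5 at 0.49 and Tyrobp at 0.72.

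For each gene, the 3 nearest in pattern were taken by the mean of the antral and corpus correlations among 14688 genes. For the 9 genes other than Coro1a, 13 of these 27 places went to genes of the tuft marker list, 6 to genes of the other signalling lists described below and 0 to the leukocyte markers. Cd300lf had Gfi1b and Ccdc129 among its 3 nearest, and Ptprc had Lrrtm3 (0.96) and Dclk1. Inpp5d was nearest to the lipoxygenase Alox5, Spib and Dclk1, and Pik3r5 to Strip2, Ccdc129 and Dclk1. Bmx was nearest to Flvcr2, the cyclooxygenase Ptgs1 and Trpm5, and Vav1 to Strip2, Ccdc129 and Gfi1b. Fyb was nearest to Hmx3, Spib and the small GTPase Rac2, Sh2d6 to Rac2, Dok2 and Il17rb, and Lrmp to Il17rb, Rac2 and Ptgs1. With all libraries, Trpm5 ranked between 3 (Bmx) and 28 (Fyb) for these 9 genes, and Tyrobp between 1898 (Ptprc) and 4668 (Bmx). These places rest in part on the antral libraries that served to choose members. Without them the tuft list took 7 places, the signalling lists 2 and the leukocyte markers 0, and Trpm5 ranked between 6 and 565. In the corpus alone the counts were 15, 2 and 0, and Trpm5 ranked between 5 and 113. For Coro1a the nearest genes with all libraries were Padi1, H2afy and Apof at 0.78 to 0.79, with Trpm5 at rank 446 and Tyrobp at rank 185.

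Among themselves the 10 genes had a median pairwise correlation of 0.87 in the antrum and 0.96 in the corpus over 45 pairs. The antral value was 0.77 without the Sox2-high and Sox2-low libraries, whose contrast served to choose members. Coro1a with the other 9 had medians of 0.48 and 0.68. In 14 of the 30 libraries Tyrobp had at most 3 reads. In those 14 libraries Vav1, Fyb, Lrmp, Pik3r5, Sh2d6 and Bmx had more than 3 reads in every one, Inpp5d and Cd300lf in 13, and Ptprc and Coro1a in 11. Reads there reached 50173 for Lrmp and 139 for Coro1a.

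The corpus EpCAM sort set Lgr5-positive cells with high EpCAM against those with low EpCAM. All 10 genes rose in EpCAM-high cells, in a comparison where 17.5% of 14847 genes were higher and 14.3% lower. Their log2 fold changes ran from 5.58 (Bmx) to 6.91 (Ptprc), with a median of 5.92 against 0.07 over all genes, and each was higher on 3 of 3 sort days without overlap between the groups. Trpm5 rose by 5.99 (SE 0.63, adjusted p = 0.000174, limma BH), within the range of the 10 genes. Tyrobp did not pass the filter on low values. Scaling by library size in place of size factors moved the median of all genes by 1.96 log2 units in this comparison, with 11230 genes higher and 146 lower against 2595 and 2119, and the 10 genes still lay 5.11 to 6.73 above that median. Pepsinogen C (Pgc), the zymogen of chief and gland cells, took 16.5 to 22.8% of reads in EpCAM-high and 40.1 to 48.0% in EpCAM-low libraries.

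Both receptors were among the genes that rose. Ptprc was at 2938, 3735 and 1497 in EpCAM-high and 91.4, 102 and 0 in EpCAM-low libraries, a rise of 6.91 (SE 1.50, adjusted p = 0.00739, limma BH). Cd300lf was at 6162, 6852 and 4390 in EpCAM-high and 276, 45.5 and 53.1 in EpCAM-low libraries, a rise of 6.01 (SE 0.67, adjusted p = 0.000225, limma BH). The lowest EpCAM-high library of each receptor lay far above the highest EpCAM-low library.

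The lipid signalling genes moved by a like amount. Inpp5d was at 5436, 10913 and 7410 in EpCAM-high and 121, 116 and 21.9 in EpCAM-low libraries, a rise of 6.79 (SE 0.59, adjusted p = 7.14e-05, limma BH). Pik3r5 was at 18317, 35823 and 27068 in EpCAM-high and 1410, 431 and 219 in EpCAM-low libraries, a rise of 5.67 (SE 0.57, adjusted p = 0.000133, limma BH). Among EpCAM-low libraries, library 1 was the highest for both and library 3 the lowest, which was also so for Trpm5.

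The kinase, exchange factor and adaptors were well expressed in EpCAM-high libraries. Bmx was at 7692, 9313 and 5598 in EpCAM-high and 422, 119 and 71.8 in EpCAM-low libraries. Vav1 was at 15022, 23020 and 16397 in EpCAM-high and 776, 252 and 68.7 in EpCAM-low libraries. Fyb had the smallest error of the 10 genes, a rise of 5.69 (SE 0.38, adjusted p = 3.06e-05, limma BH), with 10737, 21273 and 20764 in EpCAM-high and 527, 305 and 212 in EpCAM-low libraries. Sh2d6 averaged 18352 ± 3495 in EpCAM-high and 411 ± 369 in EpCAM-low libraries, and Lrmp 53922 ± 13965 and 1483 ± 1524 (SD, n = 3 each). Again no EpCAM-low library reached an EpCAM-high one.

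Coro1a, which was closer to Tyrobp than to Trpm5 over all 15 antral libraries, also rose here. It was at 144, 384 and 169 in EpCAM-high and 0, 0 and 9.37 in EpCAM-low libraries, a rise of 6.60 (SE 0.95, adjusted p = 0.000874, limma BH). Tyrobp was at 0 to 9.16 in the same EpCAM-high libraries. EpCAM-high library 2 was the highest of its group in Coro1a, Tyrobp and Trpm5. It also held the myeloid marker Csf1r at 105, against 0 in EpCAM-high libraries 1 and 3. Leukocyte markers summed to 552 to 1456 in EpCAM-high and 253 to 960 in EpCAM-low libraries, and without Cd79b and Ms4a2 to 165 to 627 and 175 to 379. Of the 16 leukocyte markers that passed the filter in this fit, C1qc, Cd79b and Mcpt1 rose and Ms4a2 fell. Mcpt1 was at 44.0, 1.15 and 6.07 in EpCAM-high and at 0 in all EpCAM-low libraries, so its rise rests largely on library 1.

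The 3 corpus comparisons of the Lgr5-DTR-GFP line share libraries and their estimate of the spread. Against corpus Lgr5-negative cells, 9 of the 10 genes rose in EpCAM-high cells, where 10.7% of genes were higher and 10.5% lower. The largest change was that of Cd300lf, at 6162, 6852 and 4390 in EpCAM-high and 397, 112 and 278 in Lgr5-negative libraries (4.62, SE 0.67, adjusted p = 0.00203, limma BH). Inpp5d, Vav1, Fyb, Lrmp, Pik3r5, Sh2d6 and Bmx rose by 3.09 to 3.74, and Trpm5 rose by 4.27 (SE 0.63, adjusted p = 0.00221, limma BH). Ptprc was at 76.4, 103 and 247 in Lgr5-negative libraries and did not pass (4.34, SE 1.50, adjusted p = 0.0690, limma BH), although its groups did not overlap, and it passed without EpCAM-low library 1 or 3. Coro1a passed narrowly (3.02, SE 0.95, adjusted p = 0.04995, limma BH). It lost the call with the sort day as a block (adjusted p = 0.0515) and without any 1 of the 6 libraries of these groups. Other markers moved in this comparison too, with Chga, Chgb, Tph1 and Ghrl of 7 enteroendocrine markers lower (median -3.95), Epcam, Krt8 and Krt18 higher and Cdh1 lower, and the endothelial genes Tek and Esam higher. Their part in the result was not tested. Of the 16 leukocyte markers tested, Cd79b rose and 0 fell.

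EpCAM-low cells lay on the other side of Lgr5-negative cells. In them 8 of the 10 genes fell, where 12.9% of genes were higher and 18% lower. Inpp5d was at 121, 116 and 21.9 in EpCAM-low and 1033, 566 and 787 in Lgr5-negative libraries, a log2 change of -3.49 (SE 0.59, adjusted p = 0.00280, limma BH). Coro1a had a change of -3.58 and Pik3r5 of -2.58, and Vav1, Fyb, Lrmp, Sh2d6 and Bmx of -2.50 to -2.03. Ptprc (-2.57, SE 1.50, adjusted p = 0.217), Cd300lf (-1.39, SE 0.67, adjusted p = 0.141) and Trpm5 (-1.72, SE 0.63, adjusted p = 0.0654) did not pass by limma BH. Of the 20 tuft markers 13 fell and 0 rose, with a median of -2.42 against -2.41 for the 10 genes. Markers of other cells fell as well, namely Csf1r, Lyz2, C1qb and C1qc of the 9 myeloid markers tested (median -2.74), the mast cell gene Mcpt1, 5 of 7 enteroendocrine and 4 of 4 epithelial markers, while Ms4a2 rose. Myeloid markers summed to 78.1 to 151 in EpCAM-low and 293 to 395 in Lgr5-negative libraries, and their part in the result was not tested. The count was 4 without Lgr5-negative library 1 and 5 without Lgr5-negative library 3. Scaling by library size moved the median of all genes by -1.93 log2 units, with 118 genes higher and 12001 lower against 1915 and 2675, and the 10 genes lay 1.21 to 3.31 below that median.

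**Figure D3:**
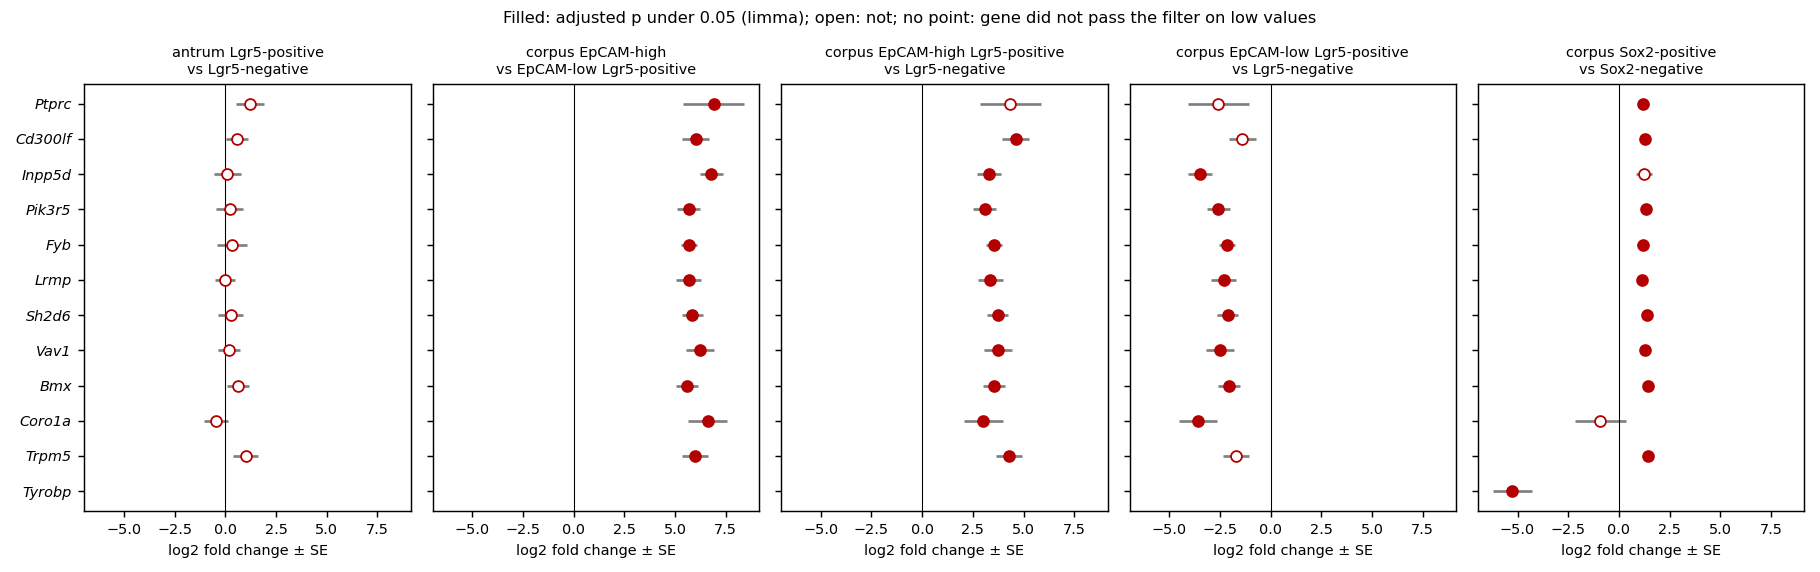
Log2 fold change with SE (limma on log2(normalized count + 1)) of the 10 signalling genes, Trpm5 and Tyrobp in 5 comparisons, filled where the adjusted p was under 0.05. All 10 genes are at 5.58 to 6.91 for EpCAM-high against EpCAM-low cells, and in the corpus Sox2 sort Coro1a (-0.92) is apart from the other 9 genes (1.12 to 1.44).

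The corpus Sox2 sort put the leukocyte reference and the tuft reference on opposite sides. In Sox2-positive cells 8 of the 10 genes rose, where 1.7% of 14034 genes were higher and 8.02% lower. Trpm5 rose by 1.44 (SE 0.22, adjusted p = 0.00311, limma BH), and Tyrobp fell by 5.26 (SE 0.96, adjusted p = 0.00803, limma BH). Tyrobp passed the filter on low values only through its Sox2-negative libraries (232, 240 and 25.3, against 0, 3.67 and 4.62). A fall was thus the only outcome this fit could give, and its p-value is no support for the direction. The largest rise was that of Bmx, at 1736, 1008 and 1445 in Sox2-positive and 583, 418 and 515 in Sox2-negative libraries (1.44, SE 0.21, adjusted p = 0.00222, limma BH). Sh2d6 was at 4286, 2528 and 2837 in Sox2-positive and 1440, 974 and 1254 in Sox2-negative libraries (1.37, SE 0.21, adjusted p = 0.00310, limma BH). Ptprc, the general leukocyte phosphatase, was at 859, 511 and 693 in Sox2-positive and 430, 264 and 224 in Sox2-negative libraries (1.19, SE 0.27, adjusted p = 0.0229, limma BH). It was thus higher in the libraries with less Tyrobp, without overlap.

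Vav1, Fyb, Lrmp, Pik3r5 and Cd300lf rose by 1.12 to 1.34. Inpp5d was at 2542, 1230 and 1856 in Sox2-positive and 1352, 582 and 553 in Sox2-negative libraries (1.24, SE 0.39), and did not pass (adjusted p = 0.108, limma BH). It passed with the sort day as a block (adjusted p = 0.00293) and without Sox2-negative library 1 (adjusted p = 0.00542). Coro1a was at 81, 27.5 and 43.1 in Sox2-positive and 243, 276 and 9.39 in Sox2-negative libraries, the only one of the 10 with a negative estimate (-0.92, SE 1.25, adjusted p = 0.807, limma BH). Its Sox2-negative values were high in libraries 1 and 2, whose leukocyte markers summed to 24655 and 21080, and low in library 3, whose sum was 2134.5. Without library 3 of the Sox2-negative group Coro1a fell by 2.47 (adjusted p = 0.0181, limma BH), and without libraries 1 and 2, a setting chosen after seeing the data, its estimate was 2.18 (adjusted p = 0.0992, limma BH).

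The summed level of the 7 enteroendocrine markers was 65671 to 76622 in Sox2-positive and 460360 to 1025400 in Sox2-negative libraries, and its part in these results was not tested.

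These calls rest on few libraries. The number of genes that rose was 2 without Sox2-negative library 2, 3 without Sox2-negative library 3 and 5 without Sox2-positive library 3. It was 3 without Sox2-negative libraries 1 and 2 together, and 0 with all 15 corpus libraries in 1 fit. Bmx and Sh2d6 rose in all 6 fits that left out a single library.

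**Figure D4:**
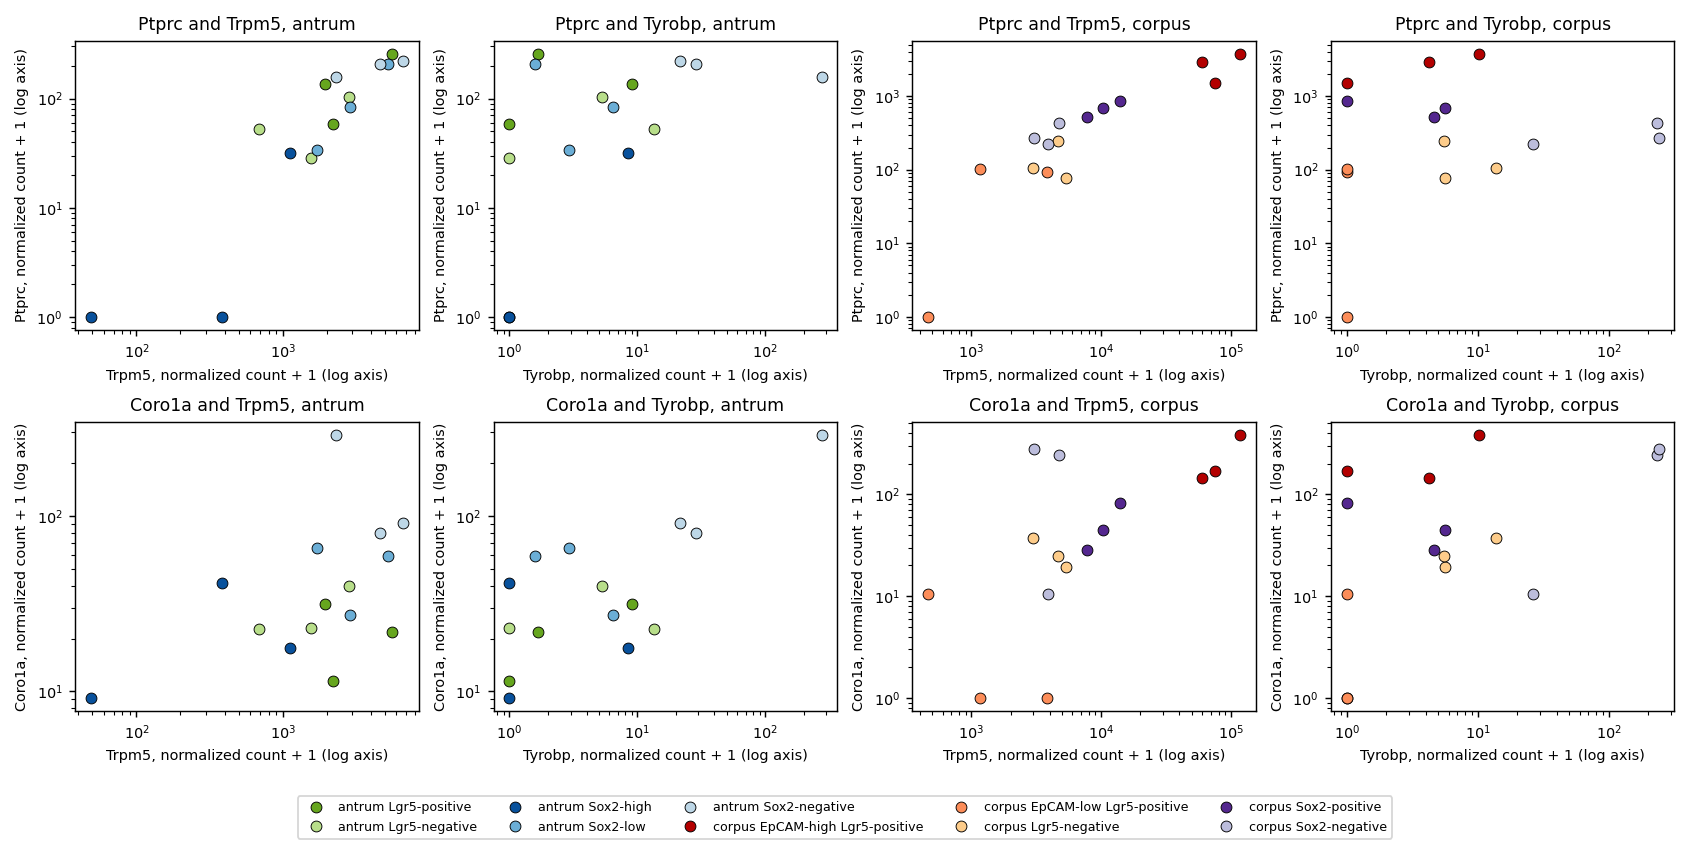
Ptprc and Coro1a against Trpm5 and Tyrobp in each library (normalized count plus 1, log axes), by group. Corpus Sox2-negative libraries 1 and 2 hold Coro1a at 243 and 276 with Tyrobp at 232 and 240, while EpCAM-high libraries hold Coro1a at 144 to 384 with Tyrobp at 0 to 9.16.

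In the antrum the Lgr5 sort gave no call in the fit without a sort-day block. Of 14047 genes, 0% were higher and 0% lower by limma with BH, with 1017 at an unadjusted p under 0.05 and none of the 10 genes among them. With the sort day as a block 446 genes passed, again with 0 of the 10, and edgeR with the block called 440. Ptprc was at 136, 256 and 58.1 in Lgr5-positive and 52, 103 and 27.6 in Lgr5-negative libraries (1.24, SE 0.69, adjusted p = 0.797, limma BH). It was higher on 3 of 3 sort days, and the groups overlapped. Trpm5 had an estimate of 1.0015 (SE 0.60, adjusted p = 0.822, limma BH), Bmx of 0.63 and Cd300lf of 0.58. The other 7 genes lay between -0.47 (Coro1a) and 0.32 (Fyb). With the sort day as a block the adjusted p was 0.0593 for Trpm5 and 0.0869 for Ptprc (limma BH).

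The difference between the tissues was tested over the 15 Lgr5-DTR-GFP libraries, as the antral Lgr5 effect minus the corpus effect of EpCAM-high against Lgr5-negative cells. It was negative for all 10 genes, and 4 passed, where 1.81% of 15539 genes were higher and 2.22% lower. The 4 were Cd300lf (-4.12, SE 0.95, adjusted p = 0.0288), Sh2d6 (-3.56, SE 0.84, adjusted p = 0.0305), Lrmp (-3.46, SE 0.87, adjusted p = 0.0400) and Fyb (-3.30, SE 0.84, adjusted p = 0.0430) by limma BH. The other 6 had estimates of -3.61 to -2.97, and Trpm5 of -3.35 (SE 0.99, adjusted p = 0.0793, limma BH). The count was 8 with the sort day as a block, where Inpp5d, Vav1, Pik3r5, Bmx and Trpm5 also passed. It was 0 without antral Lgr5-negative library 1 or 2, corpus Lgr5-negative library 2 or 3, or EpCAM-high library 2, and 1 or 2 without antral Lgr5-negative library 3, antral Lgr5-positive library 3, corpus Lgr5-negative library 1 or EpCAM-high library 1 or 3. It was 7 without antral Lgr5-positive library 2 and 8 without EpCAM-low library 3. The antral sort had no EpCAM gate in its labels, so gate and tissue cannot be told apart.

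The antral Sox2 sorts, which served to choose most of the list, are described by their values. In Sox2-high against Sox2-low cells all 10 genes had lower means, with log2 differences of -5.62 (Cd300lf) to -1.32 (Coro1a) and a median of -3.80. Every Sox2-high library lay below every Sox2-low library for 9 of the 10, against 12.5% of 15064 genes, and Coro1a was the exception. In the authors' deposited table of this comparison the log2 fold changes of the 10 genes ran from -3.57 (Inpp5d) to -1.23 (Coro1a). Cd300lf was at 5.47, 0.682 and 162 in Sox2-high, 639, 444 and 744 in Sox2-low and 552, 453 and 852 in Sox2-negative libraries. Ptprc was at 0, 0 and 30.9 in Sox2-high, 32.8, 82.3 and 206 in Sox2-low and 156, 206 and 218 in Sox2-negative libraries. Sox2-high library 3 was the highest of its group in both genes, and in Trpm5 (386, 47.8 and 1114).

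Against Sox2-negative cells the Sox2-high cells were lower in all 10 genes, by log2 differences of -5.92 (Ptprc) to -2.76 (Coro1a), and all 10 were without overlap, against 6.63% of genes. Sox2-low and Sox2-negative cells lay close together, with differences of -1.44 (Coro1a) to 0.00 (Cd300lf) and a median of -0.40. Only Coro1a was without overlap there, at 64.6, 26.3 and 57.8 in Sox2-low and 290, 78.8 and 89.8 in Sox2-negative libraries, and Tyrobp differed by -4.15 with no overlap. In this pair Coro1a was highest in Sox2-negative library 1, which held a leukocyte marker sum of 19371 and Tyrobp at 274. The summed level of 7 enteroendocrine markers was 2731700 to 3491100 in Sox2-high, 350560 to 752900 in Sox2-low and 571420 to 5372700 in Sox2-negative libraries, and its part in the lower values of the 10 genes was not tested.

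Levels were also expressed per 1000 normalized counts of Trpm5 in the same library, a ratio that does not depend on the size factor. Over the 15 corpus libraries the ratio was 190.5 to 351 for Sh2d6, 74.6 to 155 for Bmx and 149 to 341 for Vav1, the narrowest fold ranges. Those of Pik3r5, Lrmp, Cd300lf and Fyb spanned 2.65-fold to 3.35-fold, that of Inpp5d 9.12-fold, and Ptprc and Coro1a reached 0. Ranges were wider in the antrum, with Sh2d6 at 206 to 1726. Ratios are not compared between genes, whose lengths differ. Against Lgr5-negative cells, EpCAM-high cells had lower ratios without overlap for 8 genes, with log2 differences of -1.25 to -0.53, against 96.1% of all genes tested, so the count says nothing particular of the 10. Inpp5d had 90.5, 92.9 and 98.8 per 1000 in EpCAM-high and 192, 191 and 170 in Lgr5-negative libraries. Pik3r5 had 305, 305 and 361 in EpCAM-high and 716, 777 and 692 in Lgr5-negative libraries. Every EpCAM-high ratio of both genes lay below every Lgr5-negative ratio, while the ratios of Ptprc and Cd300lf overlapped. In two-sided exact permutation tests each of the 8 gave p = 0.1, the smallest that 3 against 3 libraries allow, and 0.278 after BH adjustment over 50 tests.

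In other sorts fewer of the 10 ratios separated the groups. They were lower without overlap for Inpp5d, Vav1 and Pik3r5 in antral Lgr5-positive against Lgr5-negative cells, where 16.4% of all genes were. In EpCAM-low against Lgr5-negative cells this held for Inpp5d, Vav1, Lrmp and Pik3r5 and for 4.48% of all genes. In EpCAM-high against EpCAM-low cells it held for Pik3r5 and 88.2% of all genes, and in corpus Sox2-positive against Sox2-negative cells for Fyb, Lrmp and 87.7% of all genes. Coro1a had 126 per 1000 Trpm5 in antral Sox2-negative library 1 and 51.5 and 90.4 in corpus Sox2-negative libraries 1 and 2, against 2.25 to 3.27 in EpCAM-high libraries. Its levels in those corpus libraries were 243 and 276, against 144 to 384 in EpCAM-high libraries. Trpm5 was at 4720 and 3053 there, against 60059 to 117470. The share of all genes with such a gap in the ratio was not computed. The Coro1a ratio was also high, at 105 and 171, in antral Sox2-high libraries 1 and 2, where Tyrobp was at 0 and Trpm5 at 386 and 47.8. In each antral group, library 1 had a higher Fyb ratio (1136 to 1694) than libraries 2 and 3 (154 to 943). The same held for Lrmp (1940 to 4448 against 565 to 1443) and Sh2d6 (637 to 1726 against 206 to 454).

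**Figure D5:**
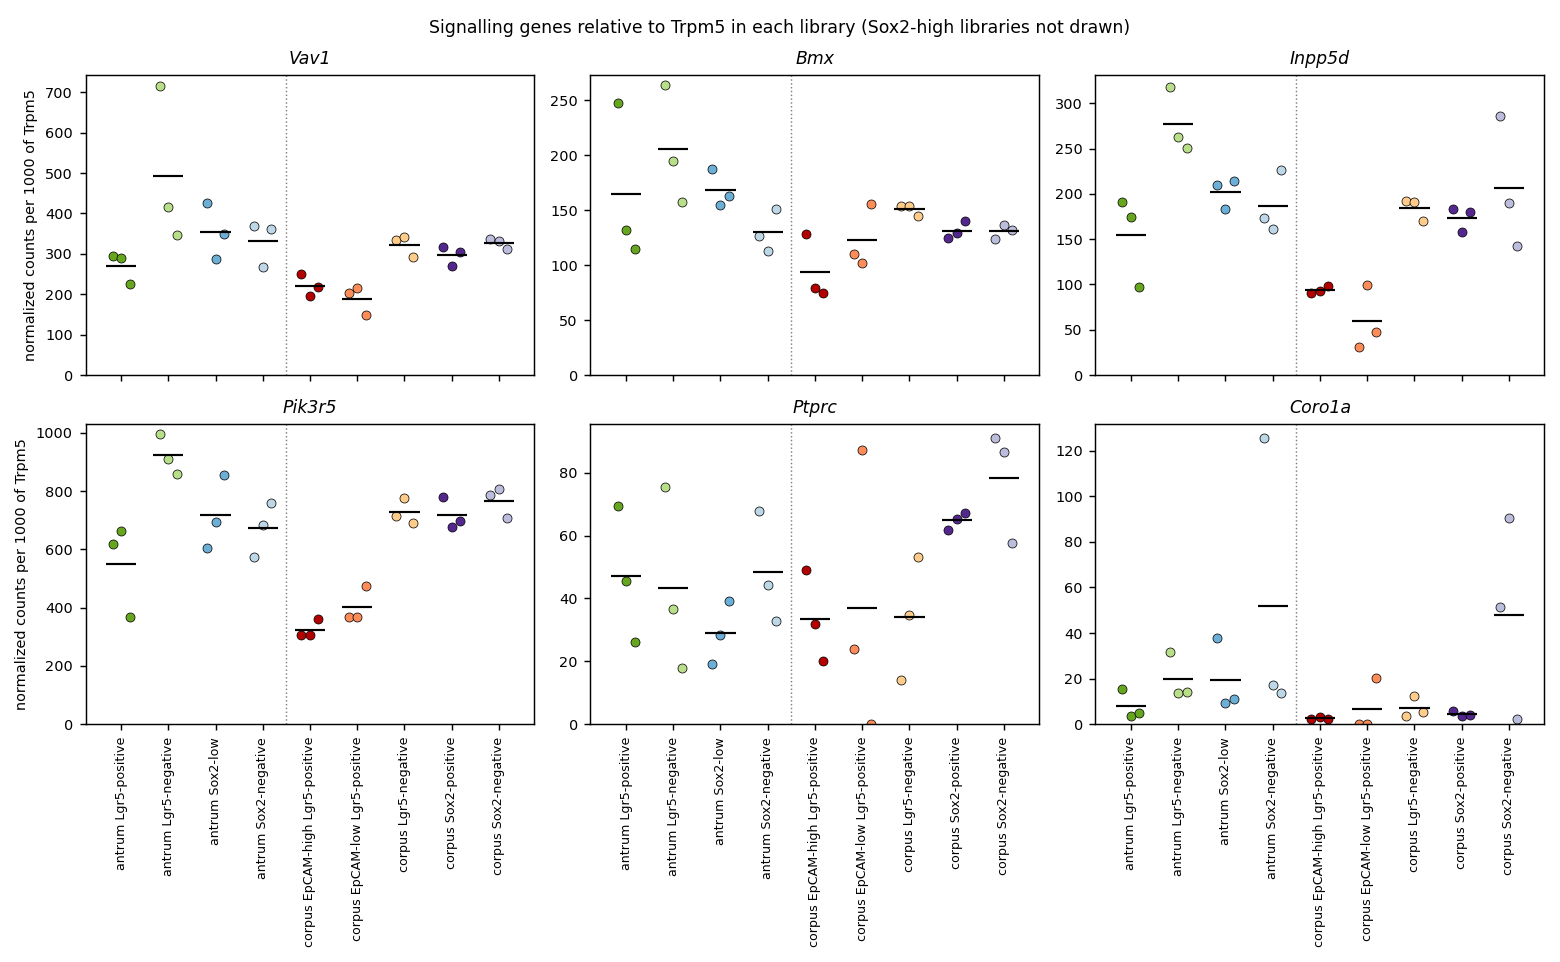
Levels of Vav1, Bmx, Inpp5d, Pik3r5, Ptprc and Coro1a per 1000 normalized counts of Trpm5 (linear axes from 0) in each library, by group, with bars at means and Sox2-high libraries not drawn. For Inpp5d and Pik3r5 the EpCAM-high libraries (90.5 to 98.8 and 305 to 361) lie below the corpus Lgr5-negative libraries (170 to 192 and 692 to 777).

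Other genes of leukocyte signalling were read from 4 lists of 51 genes in the tables, namely adaptors, tyrosine kinases and phospholipases, phosphoinositide kinases with phosphatases, and regulators of Rac and actin with CD300 receptors. Of the 33 tested in EpCAM-high against EpCAM-low cells, 20 rose and 2 (Pik3ap1 and Plcg1) fell, against 17.5% of all genes higher and 14.3% lower. The kinase Matk averaged 3353 ± 490 in EpCAM-high and 54.9 ± 23.0 in EpCAM-low libraries (5.99, SE 0.39, adjusted p = 2.90e-05, limma BH). Rac2 rose by 6.16 (SE 0.68) and the adaptor Dok2 by 5.83 (SE 0.42). Pik3cg, the catalytic partner of Pik3r5, rose by 4.82 (SE 0.65), and the phosphatase Ptpn6 (SHP-1) by 4.04 (SE 0.25). Dok3 averaged 523 ± 80.3 in EpCAM-high libraries and was at 0 in all EpCAM-low libraries, at least 61-fold higher against a floor of 3 reads per library. Other textbook partners were at 0 in all EpCAM-high libraries, among them the adaptor Lcp2 (SLP-76), which binds Vav1 and Fyb in T cells, and the kinase Btk.

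The same lists were counted in the other comparisons. Against Lgr5-negative cells 15 of 33 rose in EpCAM-high cells and Plcg1 and Coro1c fell, beside 10.7% of all genes higher and 10.5% lower, with Dok2 at 4.12 (SE 0.42) and Cd300a at 5.04 (SE 1.28). In EpCAM-low against Lgr5-negative cells 1 rose (Pik3ap1, 3.97, SE 0.63) and 13 fell, beside 12.9% of all genes higher and 18% lower. In corpus Sox2-positive against Sox2-negative cells Blnk, Skap2, Dok2, Plcg2, Pik3cg, Ptpn6 and Ptpn18 rose, by 0.78 (Plcg2) to 1.33 (Pik3cg), and Prkcb, Dock2 and Nckap1l fell, beside 1.7% of all genes higher and 8.02% lower. Dock2 was at 0 in all Sox2-positive libraries and averaged 73.7 ± 59.4 in Sox2-negative libraries, where it was at least 31.4-fold higher, and it moved with Tyrobp there. In the difference between the antral and corpus Lgr5 effects 10 of 36 were lower and 0 higher, beside 2.22% and 1.81% of all genes, and in the antral Lgr5 sort 0 of 31 passed.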

How the data were processed

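RNA of 30 sorted libraries was extracted with an RNeasy kit and made into libraries with the Clontech SMARTer v4 low-input kit, per the labels' protocols. The build mm9 and the tools DESeq2, edgeR, HTSeq and STAR are named in the submitters' processing notes, with roles, versions and use of strand not given in the sources used here, so genes that overlap or lie antisense to each other are uncertain. The authors deposited a signal per gene, which is counts divided by a size factor, for antrum and corpus separately. Dividing by the value of 1 read gave whole reads for 99.995 to 100% of values above 0 at a tolerance of 0.01. Per the file headers, the authors' deposited comparison tables give a log2 fold change and an adjusted p-value per gene. Of 26400 features, 433 without a name (at most 0.482% of reads) and 25 with a calendar date (at most 0.106%) were left out.

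The members and lists were chosen with earlier results of these data known. limma 3.58.1 (R 4.3.3, empirical Bayes with trend and robust options) was run on log2(normalized count + 1) for genes at 10 or more in at least 3 libraries of the fit, with groups of a line and tissue fitted together. The difference between tissues used recovered reads rescaled with TMM factors in edgeR 4.0.16, and the code was tested on simulated data. Named besides the 10 genes are the 3 nearest in pattern, up to 3 called genes per list and comparison with the largest change, and list genes at 0 in a whole group, of which only some are printed. Other genes named from lists were chosen after their values were seen, and some genes that the rule picks are not reported here.

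The numbers of same-line, same-tissue libraries pair them, since the sort sheet gives them 1 day in 12 of 12 combinations, and deviations from group means correlated between -0.0563 and 0.673. A block for the sort day was tried as an alternative. Whether each day had its own animals is not given in the sources used here, and p-values then cover only the spread from sort to sort, which may be technical. No replicate pair was as close as sampling of reads would make it (chi-square per degree of freedom of 34.2 or more). Reads carry no molecular identifiers, so the floor of 3 reads (1.79 to 10.5 normalized counts) covers counting error only. Other settings were pseudocounts of 0.5 and 5, no filter, TMM or library size scaling, edgeR, all 15 libraries of a tissue, and leaving out each library.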

Additional observations from a re-analysis of the deposited data

Results flagged for a closer look

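The antral Lgr5 effect differed from the corpus effect of EpCAM-high against Lgr5-negative cells, by the test of that difference (limma BH), for Cd300lf (-4.12), Sh2d6 (-3.56), Lrmp (-3.46) and Fyb (-3.30). Leaving out 1 library, 0 to 8 of the 10 genes passed. Trpm5 had an estimate of -3.35 and did not pass, and gate and tissue cannot be told apart. For 6 genes, Fyb and Lrmp again among them, the Sox2 sorts moved in opposite directions in the tissues on all 3 sort days, and this difference was not tested. Sox2-low minus Sox2-negative cells in the antrum, and Sox2-positive minus Sox2-negative cells in the corpus, differed by -1.20 and 1.19 log2 units for Ptprc, -0.36 and 1.24 for Inpp5d, -0.40 and 1.30 for Vav1, -0.49 and 1.18 for Fyb, -0.45 and 1.12 for Lrmp, and -0.40 and 1.34 for Pik3r5. Trpm5 moved in the same way, by -0.49 and 1.44. The antral groups overlapped for all 6 genes, and Inpp5d did not pass in the corpus.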

How the results depend on the processing

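In EpCAM-high against EpCAM-low cells the 10 genes rose under every setting run. Elsewhere calls moved. For the corpus Sox2 sort the count of the 10 genes that passed, 8 as reported, was 0 with all 15 corpus libraries, 3 without both leukocyte-rich libraries, and 2 to 9 leaving out 1 library. For EpCAM-low against Lgr5-negative cells it was 4 to 9 leaving out 1 library. For the difference between tissues, 4 as reported, it was 7 with a pseudocount of 5, 8 with the replicate block and 0 to 8 leaving out 1 library. The Sox2-low minus Sox2-negative difference was negative in 5 to 10 of the 10 genes leaving out 1 library, with 5 without Sox2-negative library 3.

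Counts over all genes moved as well. The antral Lgr5 sort called 0 genes, 12 with no filter, 446 with the sort-day block, 440 with edgeR and the block, 77 with all 15 libraries and 0 to 4 leaving out 1 library. EpCAM-high against EpCAM-low called 4714, 11376 with library size scaling and 2985 to 4735 leaving out 1 library. EpCAM-high against Lgr5-negative called 3140, 4937 with all 15 libraries and 1372 to 3831. EpCAM-low against Lgr5-negative called 4590, 12119 with library size scaling and 2614 to 4902. The corpus Sox2 sort called 1365, 2305 with the block, 2202 with edgeR and the block, 542 with all 15 libraries, 635 without both leukocyte-rich libraries and 690 to 1238. The difference between tissues called 627, 1456 with the block and 196 to 807.

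Of the calls on the 10 genes and Trpm5, the sort-day block changed those of Coro1a in EpCAM-high against Lgr5-negative cells, Inpp5d in the corpus Sox2 sort, and Inpp5d, Vav1, Pik3r5, Bmx and Trpm5 in the difference between tissues, and no other.

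Signs of the 10 genes turned only for estimates that had not passed. In the antral Lgr5 sort library size scaling, which moved the median of all genes by -0.43, gave -0.33 for Inpp5d, -0.24 for Vav1, -0.11 for Fyb, -0.22 for Pik3r5 and -0.17 for Sh2d6, and edgeR gave 0.0807 for Lrmp. Leaving out 1 library there gave -0.49 to 0.60 for Inpp5d, -0.34 to 0.59 for Vav1, -0.24 to 1.22 for Fyb, -0.34 to 0.50 for Lrmp, -0.43 to 0.69 for Pik3r5 and -0.19 to 0.90 for Sh2d6. Coro1a in the corpus Sox2 sort reached 2.18 without both leukocyte-rich libraries. The causes were not tested. For likeness, Trpm5 was the closer gene for 6 to 10 of the 10 genes in the antrum and 9 or 10 in the corpus over all settings. Depth limits what can be said of Tyrobp in the 14 of 30 libraries with at most 3 of its reads.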

Other observations

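A B cell receptor gene stood out among the leukocyte markers. Cd79b, the signalling chain of the B cell antigen receptor, was at 439, 829 and 373 normalized counts in EpCAM-high, 64.2, 28.0 and 6.25 in EpCAM-low and 15.3, 14.0 and 5.67 in corpus Lgr5-negative libraries. It was 4.43 log2 units higher in EpCAM-high than EpCAM-low (SE 0.81, adjusted p = 0.00305) and 5.45 higher than in Lgr5-negative cells (SE 0.81, adjusted p = 0.00220, limma BH). Its partner chain Cd79a was at 6.44, 0 and 0 in the EpCAM-high libraries. Across libraries Cd79b correlated with Trpm5 at 0.86 in the corpus and 0.57 in the antrum (Pearson r, 15 libraries each, a description).

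Ms4a2, the beta chain of the high-affinity IgE receptor of mast cells, was at 226, 623.5 and 71.8 in EpCAM-low and 0, 5.85 and 13.6 in corpus Lgr5-negative libraries (5.55, SE 1.44, adjusted p = 0.0174, limma BH). In the same EpCAM-low libraries the mast cell protease genes Cpa3 and Mcpt1, and Tyrobp, were at 0. Of the leukocyte-rich libraries, corpus Sox2-negative library 1 held mostly mast cell proteases, with Mcpt1 at 10053, Tpsb2 at 6844 and Cma1 at 2059. Corpus Sox2-negative library 2 held the macrophage genes Csf1r at 1833, Lyz2 at 2077 and C1qb at 1276, and Cd74 at 8682. Antral Sox2-negative library 1 was alike, with Csf1r at 433, Lyz2 at 2746, C1qb at 776 and Cd74 at 10212. Mast cell proteases were present in these libraries too, with Mcpt1 at 914 and 180 and Tpsb2 at 686 and 456.

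The direction of the authors' deposited tables was read from the genes with a base mean over 100. The table for the antral Lgr5 sort runs as Lgr5-negative over Lgr5-positive (r = 0.999 across 11192 genes with these values). The table named for EpCAM-high against EpCAM-low correlated with EpCAM-low over Lgr5-negative at 0.864 and with EpCAM-high over EpCAM-low at -0.522 (10450 genes). Genes are not independent replicates, and no values of the 10 genes were taken from that table.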
